A study of Rattus norvegicus with 52 samples.

Results

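The genes described here are 38 transcripts of the amino acid stress program: the cytosolic aminoacyl-tRNA synthetases, the transcription factor Atf4 and genes known to respond to it. They were found by gene symbol in the count tables, as 38 of 17356 genes, and were chosen by a measured value: Aars, which encodes alanyl-tRNA synthetase, was lower in normalised count in Cdkn1b-/- luminal cells at 6 weeks. The genotype comparison in those luminal libraries is therefore given as values only, without a test. The members comprise 13 synthetases known to respond to Atf4, 7 other synthetases, 6 regulators, 3 stress outputs, 8 genes of amino acid and one-carbon synthesis, and the tRNA exporter Xpot. Of the 38, 36 had enough reads to be tested. Aldh18a1, which acts in proline synthesis, is listed at 0 in all 48 libraries, and Nupr1, a stress-induced nuclear protein, had 3 reads over all of them.

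Aminoacyl-tRNA synthetases load each tRNA with its amino acid before translation. When amino acids run short, when misfolded protein accumulates in the endoplasmic reticulum, or when double-stranded RNA or heme deficiency is sensed, kinases phosphorylate the initiation factor eIF2. Translation then falls in general while that of Atf4 mRNA rises, so the amount of Atf4 transcript need not follow the activity of the protein. Atf4 binds C/EBP-ATF response elements and raises transcription of synthetases, amino acid transporters and enzymes of serine, asparagine and folate metabolism. Ddit3 and Trib3 act downstream of it, and Trib3 restrains it in turn.

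RNA was sequenced from sorted mammary epithelial cells of ACI rats with intact (Cdkn1b+/+) or deleted Cdkn1b, the gene of the cell cycle inhibitor p27. Knockout animals carried the alleles em1MUSC or em4MUSC, small frameshifting CRISPR-Cas9 deletions in exon 2 that were made in Sprague-Dawley zygotes and bred into ACI; both genotypes came from crosses of heterozygous parents, and all knockout rats had cataracts. Per the paper, glands for sorting came from both an early and a later backcross generation. The sample titles do not give the generation of a library. At 9 weeks, basal cells (Cd24+ Cd29high), mature luminal cells and PNA+ and Cd49b+ luminal progenitors (LP) were sequenced from each genotype, with 2 libraries per genotype and population. Basal and luminal cells were also sequenced at 4 weeks, with 3 Cdkn1b+/+ and 2 Cdkn1b-/- basal libraries and 3 luminal libraries per genotype, and at 6 weeks, with 3 and 2 basal libraries and 2 luminal libraries per genotype. The labels call both of these ages prepubertal. The paper gives each of them as a range of weeks, so animals of one group may differ in age. A separate experiment used basal and luminal cells of wild-type ACI and BN females that received an empty control or an estradiol (E2) implant at 9 weeks for 3 weeks, with 2 libraries per group in ACI and 1 in BN. Titles of BN libraries carry a pair of animal numbers each, and those of luminal libraries carry CD49b_PNA. Where titles name animals, the basal and luminal libraries of one animal share that animal. At 9 weeks no label says which libraries come from one animal, so p-values there may in part measure technical spread. In bulk RNA, fewer cells of a type and less RNA per cell cannot be told apart.

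The promoters of the members were searched for the response element. No promoter sequence was used to choose the members, but many were listed as known to respond to Atf4, which binds this element. The shares below are therefore not independent of how the list and the split of synthetases were made. RefSeq promoters of build GRCr8, from 250 bases before to 50 bases after each gene start, were matched for 33 of 38 members, 18 by current symbol and 15 by synonym. Gars, Dars, Rars, Aldh18a1 and Xpot had no entry. Each window was searched on both strands for TGATGNAA, a core spelling of the C/EBP-ATF response element whose reverse complement is TTNCATCA. It was found in 11 of the 33 member promoters (33.3%) and in 1332 of 33469 promoters overall (3.98%). By role, 7 of 12 Atf4-responsive synthetases held it, 0 of 5 other synthetases, 2 of 6 regulators, 1 of 3 stress outputs and 1 of 7 amino acid and one-carbon genes. These letters describe the windows and do not show that a factor binds there. The synthetases Iars, Mars and Tars and the stress genes Trib3 and Chac1 are shown as examples, and other members with a match are not shown. Capitals mark the match, and each run is read along the gene's own strand.
Iars, chr17:15193658-15193687, minus strand: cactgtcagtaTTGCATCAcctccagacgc
Mars, chr7:65023754-65023781, minus strand: gcccgttccggTTGCATCAgcgtgggct
Tars, chr2:62114811-62114840, minus strand: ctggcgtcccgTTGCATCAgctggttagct
Trib3, chr3:161275536-161275565, minus strand: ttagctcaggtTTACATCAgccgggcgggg
Chac1, chr3:126795953-126795982, plus strand: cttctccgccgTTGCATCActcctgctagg
These 3 synthetases and Chac1 carried the same 8 letters, TTGCATCA, and Trib3 differed in the free position of the pattern. The match lay 24 bases before the gene start in Iars, 17 in Mars, 27 in Tars, 21 in Trib3 and 167 in Chac1.

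Reads counted on genes ranged from 7985619 to 16390460 per library at 6 weeks, which was the shallowest set, and from 13659389 to 33859550 in the others. The targeted gene separated the genotypes at 9 weeks, where Cdkn1b was 1.8 to 4.61 CPM (normalised read count, scaled to library size) in 8 knockout and 6.15 to 15.7 CPM in 8 wild-type libraries. At 4 weeks the ranges overlapped, with 5.19 to 18.8 CPM in knockout and 14.3 to 41.4 CPM in wild-type libraries. At 6 weeks the library labelled Cdkn1b-/- luminal replicate 2 had 36.7 CPM, within the range of the wild-type luminal pair, and the library labelled Cdkn1b+/+ basal replicate 3 had 3.48 CPM, below every knockout library of that age. The deletions are small and the rest of the transcript can still be counted, so this is a weak check of the labels. The same luminal library had 9241 genes with a count, the fewest at 6 weeks, where its partner had 12761. It also held the highest summed markers of adipocytes (8730 CPM over 5 genes), fibroblasts (3750 over 6), endothelium (1710 over 6) and leukocytes (1450 over 7) among the 6-week libraries. Its partner, knockout luminal replicate 1, lay above both wild-type luminal libraries in each of these lists as well. The sums were 424 against 73.3 and 143 CPM for adipocytes and 102 against 15.7 and 33.7 CPM for fibroblasts. For endothelium they were 128 against 0.287 and 6.82 CPM, and for leukocytes 374 against 20.7 and 110 CPM. Markers also went against a label at 9 weeks: the summed mature luminal markers (6 genes) were 142 and 162 CPM in wild-type libraries sorted as mature luminal and 379 to 406 CPM in PNA+ and 287 to 366 CPM in Cd49b+ progenitors, with Pgr, Foxa1 and Prlr called higher in LP and the progenitor marker Elf5 called lower. Mature luminal and LP are therefore used here as names of sort gates. The main counts of members that rest on either 6-week library are given with and without it, but not every value is.

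At 6 weeks, the wild-type luminal libraries held far more transcript of the Atf4-responsive synthetases than the libraries labelled knockout. Aars was 324 and 253 CPM in the wild-type pair and 59.4 and 51.2 CPM in the pair labelled Cdkn1b-/-, a log2 difference of -2.37. All 13 Atf4-responsive synthetases were lower in the knockout pair in the fitted log2 difference, with a median of -2.25, whereas the 7 others divided into 3 lower and 4 higher, with a median of 0.07. Over the 36 measured members, 27 were lower and 9 higher, and the median was -1.49 beside -0.01 for all genes. This comparison chose the members and carries no test.
The isoleucyl enzyme Iars was 371 and 166 CPM in wild-type and 32.6 and 1.44 CPM in knockout libraries. For Cars, the cysteinyl enzyme, the wild-type values were 654 and 417 CPM and the knockout values 55.2 and 13.4 CPM. Gars, the glycyl enzyme, read 394 and 196 CPM against 61.8 and 4.2 CPM. In each of these the lowest value came from replicate 2 labelled knockout, which stood well under its own partner. Sars, the seryl enzyme, went the other way within that pair: it was 365 and 362 CPM in wild-type libraries and 130 CPM in knockout replicate 1, and knockout replicate 2 lay above all 3.
Downstream genes were divided. Of 7 measured genes of amino acid and one-carbon synthesis 5 were lower and 2 higher in the knockout pair, all 3 stress outputs were lower, and of 5 regulators 2 were lower and 3 higher. Cth, which makes cysteine from cystathionine, was higher by a log2 difference of 2.16, Ddit3 by 0.91 and Pck2, the mitochondrial enzyme that makes phosphoenolpyruvate, by 0.49, and Phgdh, which starts serine synthesis, differed by -0.27. Ddit3 overlapped between the genotypes, at 100 to 123 CPM in wild-type and 102 to 311 CPM in knockout libraries. So did Pck2 (46.5 to 140 and 58 to 196 CPM) and Phgdh (26 to 28.2 and 2.75 to 42 CPM). Asns, the asparagine synthetase, was 416 and 336 CPM in wild-type and 62.5 and 85.8 CPM in knockout libraries. The mitochondrial serine-to-glycine enzyme Shmt2 was 652 and 432 CPM against 64.8 and 114 CPM. Trib3 read 186 and 181 CPM against 20.2 and 13.1 CPM. In all 3 genes the groups did not overlap. Mthfd2, the folate enzyme that works beside Shmt2, had the same order, at 178 and 94.4 CPM in wild-type libraries, while its knockout values of 17.5 and 0.131 CPM differed widely between replicates. Xpot, which carries tRNA out of the nucleus, was 140 and 81.8 CPM in wild-type libraries, 21.5 CPM in knockout replicate 1 and 0 in replicate 2.
The transcription factor itself did not share this direction. Atf4 was 1290 and 1470 CPM in wild-type and 1650 and 1670 CPM in knockout luminal libraries. Dars, the aspartyl enzyme, was 41 and 23.3 CPM in wild-type and 115 and 214 CPM in knockout libraries, the opposite of Aars. Across the members, 24 had both knockout libraries below both wild-type ones, where 25.4% of all genes did, and 3 (Atf4, Cth and Dars) had both above, where 22.3% of all genes did. Without knockout replicate 2, 28 members lay below (31.8%) and 5 above (41.8%). With each of the 4 libraries left out in turn the median log2 difference ranged from -2.06, without knockout replicate 1, to -1.32. Without knockout replicate 2, whose Cdkn1b level goes against its label, it was -1.38. The remaining knockout library also held more markers of other cells than the wild-type pair, and the part of such cells in the difference was not tested.

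**Figure D1:**
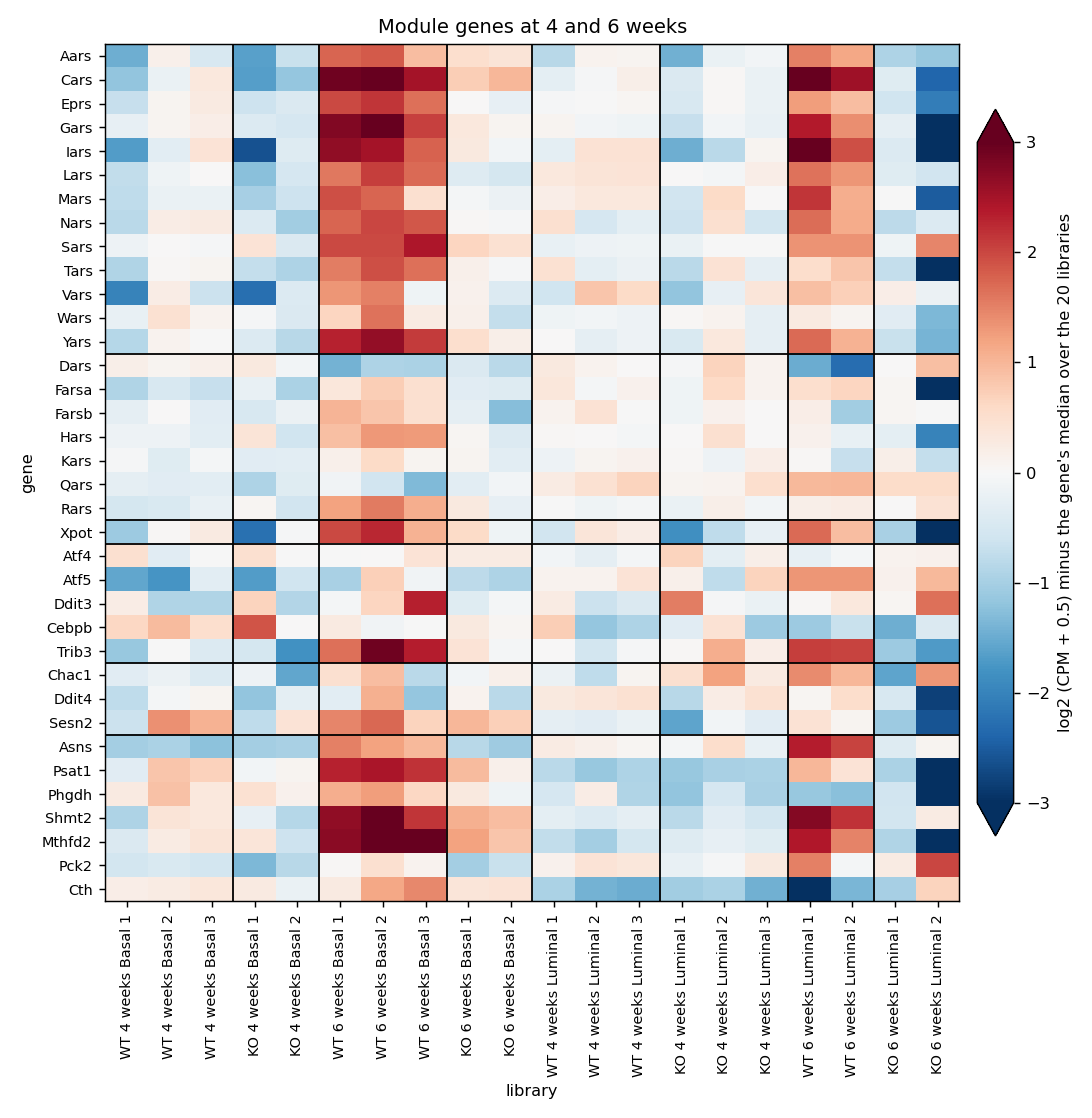
Each row is a member and each column a 4-week or 6-week library; colour gives the log2 CPM of that gene minus its median over the 20 libraries, after 0.5 was added to each CPM. The 5 wild-type libraries of 6 weeks, basal and luminal, stand out as the block in which most synthetases and amino acid genes are high; Aars is 214 to 405 CPM there and 36.4 to 161 CPM in the other 15.

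The rule that chose the members names luminal values and not the basal cells of the same age. Members were still chosen with earlier results of these data known, and 4 of these 5 basal libraries come from the same animals as the luminal ones. The basal comparison is therefore not independent of the choice. Members were lower in Cdkn1b-/- basal cells in fitted value, but no member and no gene passed the threshold. The median log2 fold change of knockout against wild type was -1.32 over 36 members, beside 0.08 over all genes, and 32 of 36 were below 0. Of the members 0 were called (0% of all genes tested), at an adjusted p under 0.05 (Benjamini-Hochberg) in the quasi-likelihood test of edgeR. At an unadjusted p under 0.05 there were 15 members and 8.93% of all genes.
Lars, the leucyl enzyme, came closest: it was 388, 541 and 417 CPM in wild-type and 98.3 and 89.6 CPM in knockout basal libraries, with a log2 fold change of -2.15 ± 0.38 (SE) and an adjusted p of 0.15. Gars was 517, 621 and 313 CPM against 93.2 and 78.7 CPM, and its log2 fold change of -2.39 ± 0.91 had an adjusted p of 0.51. Asns was 232, 190 and 160 CPM against 45.7 and 38.9 CPM, with -2.09 ± 0.41 and an adjusted p of 0.23. None of these 3 overlapped between the genotypes. Aars, at 378, 405 and 214 CPM against 161 and 148 CPM, also kept the groups apart, with a smaller difference of -1.01 ± 0.41 and an adjusted p of 0.53. In 26 members every knockout basal library lay below every wild-type one, as did 16.8% of all genes, and Dars alone lay above, as did 23.2%. Without wild-type basal replicate 3, whose Cdkn1b level goes against its label, 0 members were called, the median was -1.39, and 29 members lay below (27.7% of all genes) and 2 above (31.8%).
DESeq2 called 7 members lower here, of 330 genes in all, and a fit with the 4-week libraries added called 6 members lower, of 210 genes. The biological coefficient of variation at 6 weeks was 87.8%, against 44.2% at 4 weeks. Markers of other cells moved with the genotype: the summed fibroblast markers were 71.4 to 555 CPM in wild-type and 2010 to 3030 CPM in knockout basal libraries, and endothelial markers 0.392 to 3.51 against 7.82 to 25.5 CPM. The Schwann cell marker S100b was higher in knockout cells by 4.61 ± 0.71 in fitted value (adjusted p = 0.12). Of 8 basal markers 7 were higher in knockout cells in fitted value and 0 passed the test. The part of these cells in the difference was not tested.

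No member was called between genotypes at 4 weeks, where 0% of genes were called in basal and 0% in luminal cells. Aars in wild-type basal cells was 40.7, 126 and 80.1 CPM and in knockout basal cells 36.4 and 70.5 CPM, so the groups overlapped. In luminal cells it was 63.2, 121 and 119 CPM in wild-type and 41.5, 97.7 and 107 CPM in knockout libraries, which overlapped as well. The median log2 fold change of the members was -0.39 in basal cells, with 26 of 36 lower, and -0.13 in luminal cells, with 24 of 36 lower. The genotype effect in basal cells was then compared between the ages: the difference, 6 minus 4 weeks, was called in 0 members and in 0.0398% of genes, with a median of -1.04 over members and 0.03 over all genes. Without wild-type 6-week basal replicate 3 it was 0 members and -0.96. Asns had the largest of these differences, -2.26 ± 0.47, with an adjusted p of 0.13 in edgeR's quasi-likelihood test. DESeq2 called 3 members. At an unadjusted p under 0.05 edgeR gave 1 member for genotype in basal cells at 4 weeks (2.5% of all genes) and 1 in luminal cells (3.42%). For the difference between ages it gave 10 (8.85%). DESeq2 called 0 in each genotype comparison of 4 weeks.

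Of the comparisons tested, age gave the most calls. Between 4 and 6 weeks, 18 members rose and 1 fell in wild-type basal cells, 19 of 36, where 10.4% of all genes were called (4.76% higher and 5.61% lower). The median log2 fold change of the members was 1.74 and that of all genes 0. The 6-week wild-type libraries are those of the genotype comparison, so both comparisons share them. Some of them come from the animals whose luminal libraries were used to choose the members, so this test is not independent of that choice. Age and any difference in preparation between the animals of 4 and 6 weeks cannot be told apart.
Most of the genes that rose were synthetases. Of the 13 Atf4-responsive ones, 11 rose: Aars, Cars, Eprs, Gars, Iars, Lars, Mars, Nars, Sars, Tars and Yars. Yars, the tyrosyl enzyme, was 72.2, 142 and 129 CPM at 4 weeks and 654, 820 and 563 CPM at 6 weeks, a log2 fold change of 2.57 ± 0.36 (SE) with an adjusted p of 0.00077 in edgeR's quasi-likelihood test. Cars rose from 31.3, 62.5 and 88.9 CPM to 545, 654 and 406 CPM, by 3.14 ± 0.48 on the log2 scale (adjusted p = 0.00098). Eprs, the single enzyme that loads both glutamate and proline, was 182, 309 and 350 CPM at 4 weeks and 1150, 1300 and 918 CPM at 6 weeks. For Aars the change was 2.01 ± 0.46 (adjusted p = 0.012). In each of these 4 genes all 6-week libraries lay above all 4-week libraries. Vars and Wars, the valyl and tryptophanyl enzymes, did not pass, with 1.61 ± 0.60 (adjusted p = 0.09) and 0.82 ± 0.39 (adjusted p = 0.18).
Among the 7 other synthetases, Hars and Rars rose, Dars fell, and 4 were not called. Hars, the histidyl enzyme, changed by 1.37 ± 0.39 (adjusted p = 0.032) and Rars, the arginyl enzyme, by 1.71 ± 0.30 (adjusted p = 0.0028). Dars was 129, 122 and 128 CPM at 4 weeks and 42.9, 60.5 and 59.8 CPM at 6 weeks, and its log2 fold change was -1.22 ± 0.34 (adjusted p = 0.03). It is the member that ran against Aars here as it did in the luminal values above.
In the regulator group only Trib3 was called: 19.6, 43.3 and 32.8 CPM became 139, 333 and 228 CPM, a rise of 2.87 ± 0.47 (adjusted p = 0.0016). Atf4 mRNA was 2120, 1210 and 1520 CPM at 4 weeks and 1520, 1530 and 2040 CPM at 6 weeks, with overlapping groups and a log2 fold change of 0.07 ± 0.31 (adjusted p = 0.91). Ddit3, the stress transcription factor CHOP, had 498 CPM in wild-type basal replicate 3 and 94.7 and 154 CPM in the other two, and its 1.77 ± 0.64 did not pass (adjusted p = 0.082). None of the 3 stress outputs Chac1, Ddit4 and Sesn2 was called.
Of 7 measured genes of amino acid and one-carbon synthesis, 4 rose. Shmt2 was 50.5, 125 and 119 CPM at 4 weeks and 605, 812 and 423 CPM at 6 weeks (log2 fold change 2.64 ± 0.39, adjusted p = 0.00097). Asns rose from 40.2, 41.9 and 34.4 CPM to 232, 190 and 160 CPM, by 2.32 ± 0.31 (adjusted p = 0.00061), the lowest adjusted p among the members. Mthfd2 changed by 3.10 ± 0.77 (adjusted p = 0.018), and Psat1, a serine synthesis enzyme, by 1.84 ± 0.51 (adjusted p = 0.03). Phgdh, which takes the step before Psat1, was 75.7, 117 and 78.6 CPM and then 135, 150 and 96.7 CPM, overlapping between ages, and was not called (0.49 ± 0.59, adjusted p = 0.62).

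**Figure D2:**
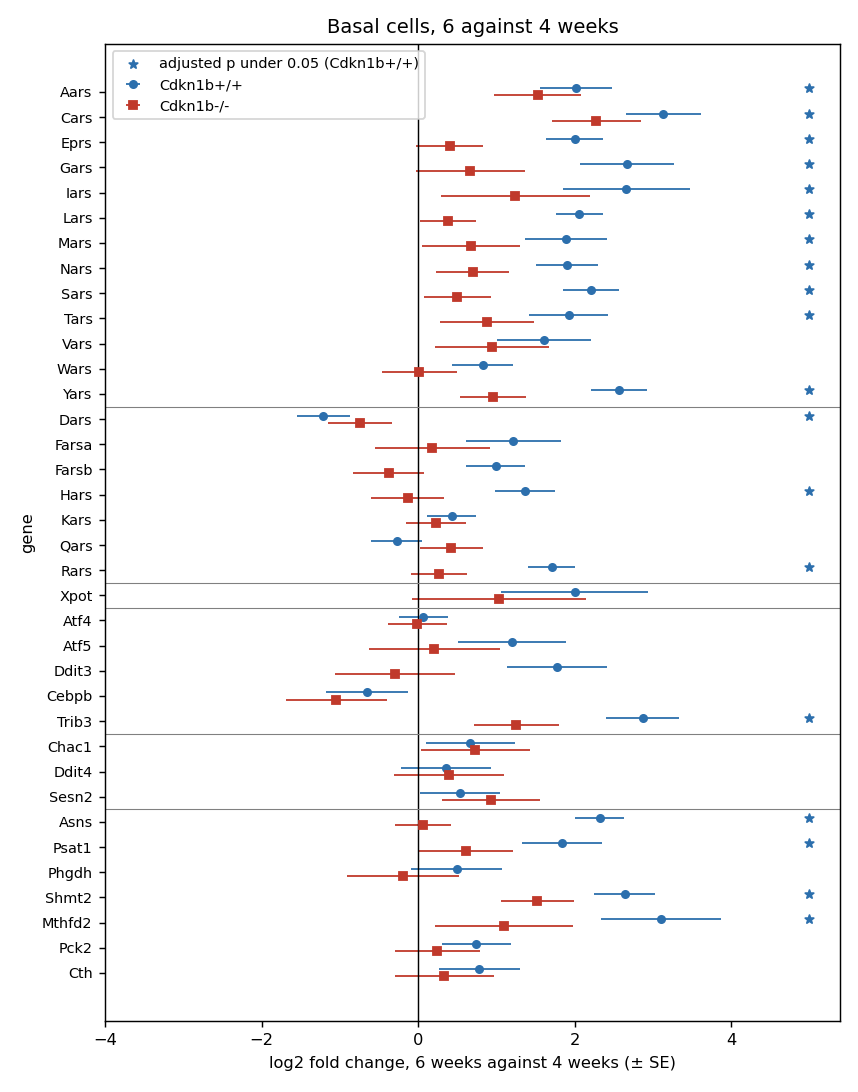
Points are log2 fold changes of 6 against 4 weeks in basal cells and bars their standard errors, for each member tested, with wild-type and knockout animals marked apart. In wild-type cells the 19 called members lie between -1.22 for Dars and 3.14 for Cars, and Atf4 lies at 0.07.

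The rest of the pathway, taken from lists of known genes, moved partly with the members. Of 22 other Atf4 targets measured, 10 rose and 1 fell in wild-type basal cells between 4 and 6 weeks, with a median of 1.68. The cystine transporter Slc7a11 changed by 3.58 ± 0.67 (adjusted p = 0.0038), the glycine transporter Slc6a9 by 4.08 ± 0.87 (adjusted p = 0.008) and the translation repressor Eif4ebp1 by 3.22 ± 0.49 (adjusted p = 0.00098). Atf3, which is also an immediate early gene, was the one that fell. All 3 scaffold proteins of the multi-synthetase complex rose: Aimp1 by 1.59 ± 0.44, Aimp2 by 1.90 ± 0.50 and Eef1e1 by 1.92 ± 0.48. Of 15 mitochondrial synthetases, which load tRNAs inside mitochondria, 0 were called, and their median was -0.82. Of 13 chaperones and other genes of the Atf6 and Xbp1 branches of the unfolded protein response, none rose and Pdia6 fell. Among 8 kinases, phosphatase subunits and other parts of the eIF2 switch, Eif2s1, the phosphorylated subunit itself, rose by 1.68 ± 0.38, and the RNA-sensing kinase Eif2ak2 fell by 1.42 on the log2 scale.
Other lists changed as well in this comparison. The basal markers Krt5, Acta2 and Oxtr fell, 3 of 8. Summed markers of fibroblasts were 1130 to 6020 CPM at 4 weeks and 71.4 to 555 CPM at 6 weeks, with Col1a1 called lower and the Schwann cell marker S100b called lower as well. The leukocyte marker Lyz2, 1 of 7, and the mature luminal marker Areg, 1 of 5, rose, and the progenitor marker Cd14 fell. Endothelial markers summed to 5.81 to 12.4 and 0.392 to 3.51 CPM, and 1 of 6, Emcn, fell. Of 13 genes that respond to tissue dissociation, Fos, Jun, Junb, Egr1 and Atf3 fell and Hsph1 rose; their sum was 20200 to 25200 CPM at 4 weeks and 8670 to 13500 CPM at 6 weeks. The part of these shifts in the members' change was not tested.
The member count was 17 to 21 under the other normalization, filters and tool and with the basal libraries alone. It was 10 without wild-type 4-week basal replicate 1, 12 without replicate 2 and 12 without replicate 3. Without the 6-week wild-type replicate 3, whose Cdkn1b level is low, it was 16. The shares of all genes called in these other fits are not given here, so their counts are not read as results about the members.

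In knockout basal cells the same step from 4 to 6 weeks, a comparison added after the data had been seen, called 0 members (0% of genes tested). The median log2 fold change was 0.41, with 29 of 36 above 0 and 5 members at an unadjusted p under 0.05 in edgeR (2.5% of all genes). DESeq2 called 0. Yars was 97.9 and 73.8 CPM at 4 weeks and 186 and 147 CPM at 6 weeks, which did not overlap, with 0.96 ± 0.42 and an adjusted p of 1 in edgeR's quasi-likelihood test. Asns was 39.8 and 41.5 CPM and then 45.7 and 38.9 CPM, with overlapping groups. In 20 members both knockout libraries of 6 weeks lay above both of 4 weeks (18% of all genes), and in wild-type basal cells all of 6 weeks lay above all of 4 weeks in 23 (15.5%), or in 28 (25%) without 6-week replicate 3. A direct test of whether age acted differently in the genotypes is the difference given above, called in 0 members.
In luminal cells the ages are described only, because the rule used the 6-week libraries. Aars was 63.2, 121 and 119 CPM at 4 weeks and 324 and 253 CPM at 6 weeks in wild-type cells. In knockout cells it was 41.5, 97.7 and 107 CPM and then 59.4 and 51.2 CPM. Thus both wild-type 6-week libraries lay above all at 4 weeks, and the knockout ages overlapped. The same order held for 24 members in wild-type luminal cells (20.5% of all genes) and for 1 member in knockout luminal cells (6.94% of all genes), where 7 members lay below (10.6%). Without knockout replicate 2 of 6 weeks these became 2 above (21%) and 11 below (18.4%).

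A ratio within each library avoids the choice of scaling. The summed CPM of the 13 Atf4-responsive synthetases was divided by that of the 7 others, a split made with earlier results of these data known. In the 5 wild-type libraries of 6 weeks the ratio was 7.17, 6.91 and 6.18 in basal and 7.38 and 6.21 in luminal cells. In the 6-week libraries labelled knockout it was 3.19 and 3.56 in basal and 1.78 and 1.77 in luminal cells. Every other set lay lower than the wild-type 6-week libraries: 1.75 to 3.26 at 4 weeks, 1.88 to 3.06 at 9 weeks and 1.37 to 4.26 in the E2 experiment. The sum of the 13 was 4233 to 8394 CPM in the 5 wild-type libraries of 6 weeks, 1141 to 2153 CPM in the 4 labelled knockout and 1086 to 2132 CPM at 4 weeks. The 2 libraries whose Cdkn1b level went against their label had the ratios of the groups they are labelled with. For knockout luminal replicate 2 this does not check the label, because that library was among those used to choose the members. The ratio includes luminal libraries that the rule used, and it carries no test.

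**Figure D3:**
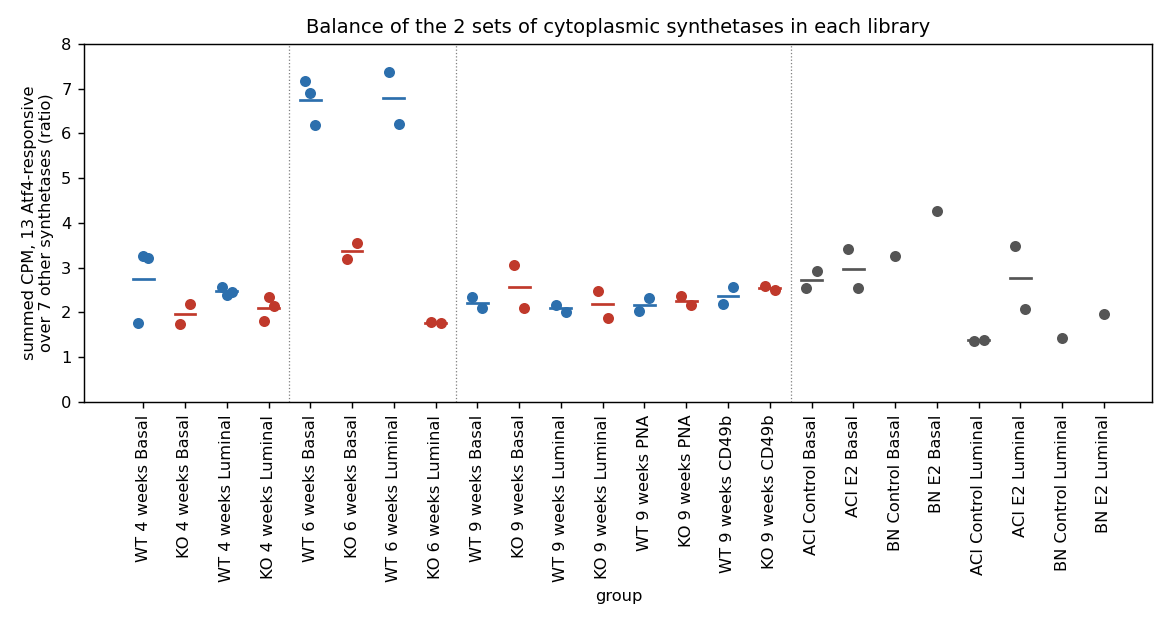
Each point is one of the 48 libraries and shows the summed CPM of 13 Atf4-responsive synthetases divided by the summed CPM of 7 other synthetases, by group. The 5 wild-type libraries of 6 weeks lie between 6.18 and 7.38, and the 43 others between 1.37 and 4.26.

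Between cell types the share of members called was below or near that of all genes. In wild-type cells of 9 weeks, 6 of 36 members were called between basal and mature luminal cells, where 20.8% of all genes were called (12.2% higher and 8.57% lower). None was a synthetase. With the library number as a block within genotype, 15 members were called, 9 higher and 6 lower, where 37.9% of all genes were. Sesn2, a stress-induced inhibitor of mTORC1 signalling, was 732 and 673 CPM in basal and 118 and 204 CPM in mature luminal cells, a log2 fold change of 2.13 ± 0.45 (SE; adjusted p = 0.0048 in edgeR's quasi-likelihood test). Mthfd2 was 87.5 and 34.2 CPM in basal and 11.1 and 6.68 CPM in mature luminal cells, 2.78 ± 0.53 (adjusted p = 0.0027). Chac1, which breaks down glutathione, was 61.2 and 23.2 CPM against 12.4 and 10.5 CPM, 1.89 ± 0.45 (adjusted p = 0.0098). In these 3 genes the groups did not overlap, although the basal replicates differed from each other. Trib3 and Cebpb were also higher in basal cells, by 1.30 ± 0.43 (adjusted p = 0.046) and 0.88 ± 0.26 (adjusted p = 0.029). Asns was lower there, 70 and 51.5 CPM against 114 and 92.4 CPM, with -0.76 ± 0.25 (adjusted p = 0.044). Cebpb encodes a partner of Atf4 at the response element.
Of 8 amino acid transporters on the target list, 4 were higher in basal cells (Slc7a11, Slc6a9, Slc7a5 and Slc38a2), 1 was lower (Slc1a4, -1.51 ± 0.47) and 3 were not called. Slc7a11 was higher by 3.10 ± 0.52 and Slc6a9 by 2.41 ± 0.41, while of 13 unfolded protein response genes 3 were lower, among them Xbp1 at -1.76 ± 0.25. All 8 basal markers were higher and 6 of 7 luminal markers lower. Of 13 dissociation-responsive genes 7 were lower in basal cells, and their sum was 18300 to 22300 CPM there and 45800 to 49600 CPM in mature luminal cells; their part in the calls was not tested. The call of 6 members fell to 2 when only these 4 libraries were fitted, and to 1, 2 or 3 without mature luminal replicate 1, mature luminal replicate 2 or basal replicate 1.
At 4 weeks, 3 members were called between wild-type basal and luminal cells (23.3% of all genes, 13.7% higher and 9.63% lower). Cth was 39.6, 40.4 and 43.6 CPM in basal and 17.6, 12.6 and 11.8 CPM in luminal cells (1.65 ± 0.31, adjusted p = 0.0016). Psat1 was 49.9, 113 and 104 CPM against 36.2, 28.8 and 33.4 CPM (1.54 ± 0.33, adjusted p = 0.0043). Asns again was lower in basal cells, 40.2, 41.9 and 34.4 CPM against 97.3, 91.1 and 85.1 CPM (-1.14 ± 0.28, adjusted p = 0.0091). None of the 3 overlapped. All 5 fibroblast markers tested were higher in basal cells, and the summed list was 1130 to 6020 CPM there and lower in all 3 luminal libraries; the part of fibroblasts in the calls was not tested. With the animal as a block, 11 members were called, 5 higher and 6 lower in basal cells. DESeq2 and a fit of these 6 libraries alone called 6 members each, and 5 were called without basal replicate 1. The shares of all genes called in these other fits are not given here, so their counts are not read as results about the members. Sesn2, at 165, 661 and 528 CPM in basal and 212, 204 and 223 CPM in luminal cells, overlapped and was not called (adjusted p = 0.14).
In the E2 experiment 1 member was called between basal and luminal cells (2.05% of all genes, 1.19% higher and 0.855% lower), and it was Sesn2. In basal cells it was 713 and 656 CPM in ACI controls, 687 and 502 CPM in ACI after E2, and 734 and 1100 CPM in the BN control and E2 libraries. In luminal cells the same groups had 277 and 289, 119 and 96.1, and 459 and 283 CPM. All 6 basal libraries lay above all 6 luminal ones, and the log2 fold change was 1.69 ± 0.29 (adjusted p = 0.022). Cebpb was close, at 1.42 ± 0.33 (adjusted p = 0.052). The call of Sesn2 depended on single libraries: 0 members were called without ACI control basal replicate 2, without ACI E2 luminal replicate 2 or without the BN E2 luminal library, and 2 without the BN control luminal or the BN E2 basal library.

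**Figure D4:**
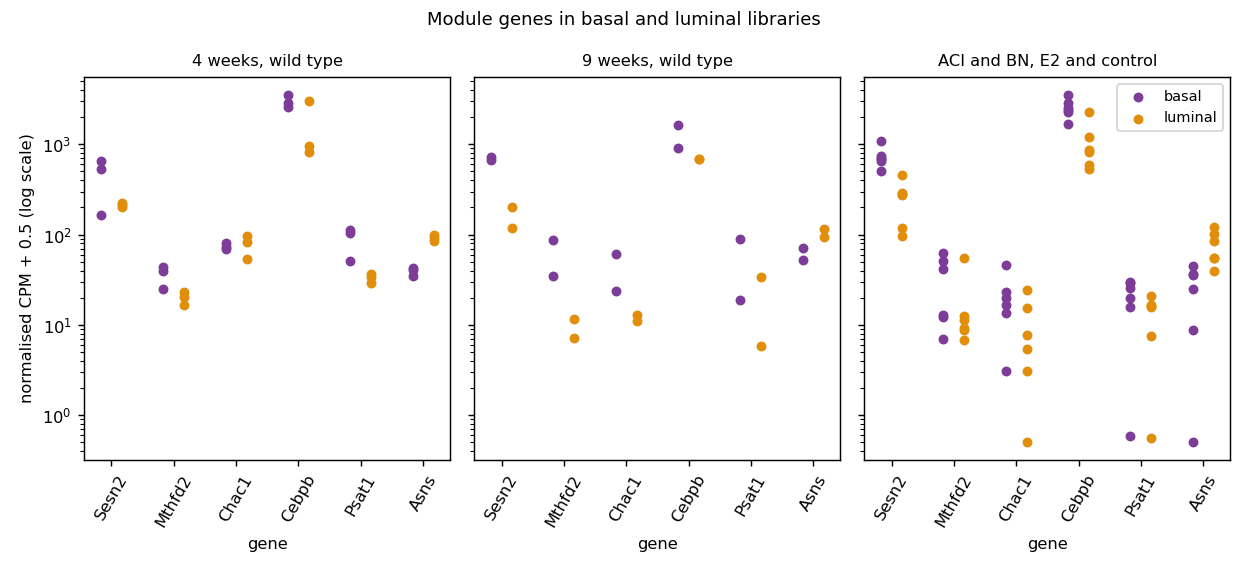
Points are the CPM of single wild-type or E2-experiment libraries plus 0.5 on a log axis for 6 of the members called between basal and luminal cells, with basal and luminal libraries side by side in each experiment. Sesn2 is 673 to 732 CPM in basal and 118 to 204 CPM in mature luminal cells at 9 weeks, and 502 to 1100 against 96.1 to 459 CPM in the E2 experiment.

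At 9 weeks 3 members were called between genotypes, all in LP. With PNA+ and Cd49b+ libraries as one group, 3 of 36 members were called, where 3.41% of all genes were (2.13% higher and 1.28% lower), and the median log2 fold change was 0.13 beside 0.03 for all genes. Iars was 29.1 to 35.2 CPM in the 4 wild-type and 57.3, 59.6, 62.6 and 99.9 CPM in the 4 knockout libraries (1.09 ± 0.21 SE, adjusted p = 0.013 in edgeR's quasi-likelihood test). Cebpb was 331 to 439 CPM in wild-type and 582 to 725 CPM in knockout libraries (0.73 ± 0.19, adjusted p = 0.049). Ddit3 was 28.9 to 41.1 CPM in wild-type and 13.8 to 20.6 CPM in knockout libraries (-0.96 ± 0.20, adjusted p = 0.021). The genotypes did not overlap in any of the 3, and each also stood apart within PNA+ and within Cd49b+ cells. The direction of Iars here is the reverse of its order in luminal cells at 6 weeks.
Tars, the threonyl enzyme, also had separate groups, 60 to 75.2 CPM in wild-type and 105 to 141 CPM in knockout LP, and did not pass (0.81 ± 0.23, adjusted p = 0.08). Aars did not pass either: it was 107 to 130 CPM in wild-type and 114 to 151 CPM in knockout libraries, and its 0.20 ± 0.22 had an adjusted p of 0.68. Of the 22 other Atf4 targets, Eif4ebp1 and Vldlr rose in knockout LP, by 0.70 ± 0.17 and 1.20 ± 0.22, and Gdf15 fell (-1.49 ± 0.33). Of 13 dissociation-responsive genes, Fosb, Hspa8 and Hsph1 fell, and their sum was 31100 to 36000 CPM in wild-type and 22600 to 28600 CPM in knockout LP. The mature luminal markers Foxa1 and Prlr fell as well, 2 of 5, while the Schwann cell marker Sox10 and the adipocyte marker Cidec rose. The part of these in the 3 calls was not tested.
The PNA+ and Cd49b+ libraries of one number deviated together. When they were summed, so that each genotype had 2 samples, 0 members were called, and Iars kept a log2 fold change of 1.06 with an adjusted p of 0.49. In PNA+ cells alone 0 members were called and in Cd49b+ cells alone 0. Single libraries moved the count from 3 to 1 when knockout Cd49b+ replicate 1, knockout PNA+ replicate 2, wild-type Cd49b+ replicate 1 or either wild-type PNA+ library was left out, and to 5 without knockout Cd49b+ replicate 2. The call of Cebpb was lost under the other normalization (adjusted p = 0.053) and both other filters (adjusted p = 0.064 and 0.068).

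**Figure D5:**
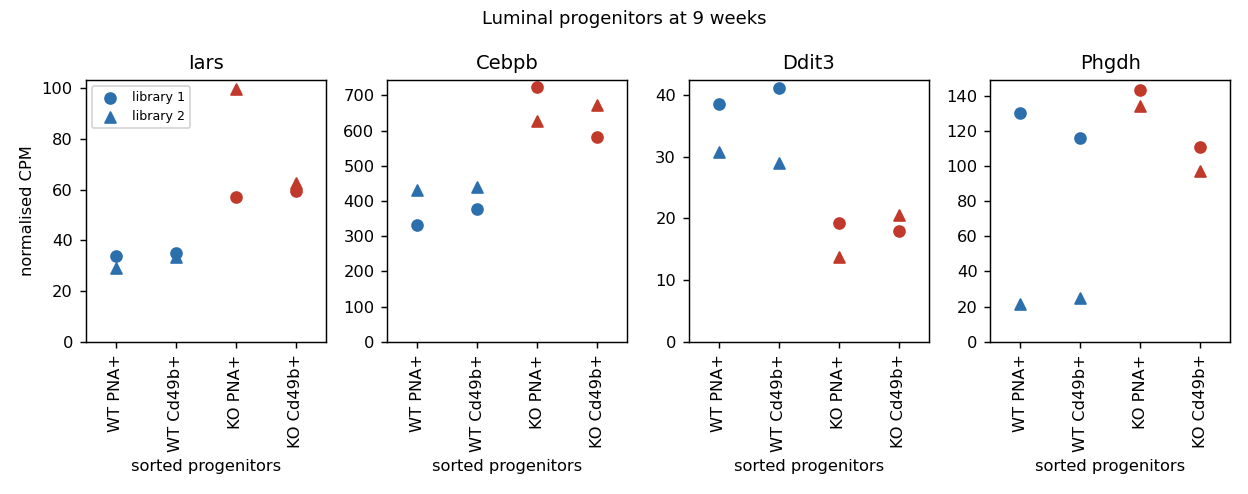
Points are the CPM of each 9-week LP library, wild-type and knockout side by side, for the 3 members called in LP and for Phgdh, the serine synthesis enzyme; PNA+ and Cd49b+ cells have separate positions and the library numbers separate symbols. For Iars the 4 knockout libraries lie at 57.3 to 99.9 CPM and the 4 wild-type libraries at 29.1 to 35.2 CPM, whereas the genotypes overlap for Phgdh, whose wild-type libraries of number 1 and 2 lie far apart.

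In the other populations of 9 weeks no member was called between genotypes. In basal cells 0 members were called (0.0546% of genes, all higher), and Aars was 172 and 127 CPM in wild-type and 229 and 116 CPM in knockout libraries. In mature luminal cells 0 were called (0.133% of genes, 0.101% higher and 0.0312% lower), with Aars at 116 and 135 CPM against 155 and 91.8 CPM. Both pairs of groups overlapped. The difference between the genotype effect in LP and in basal cells, or in LP and in mature luminal cells, was called in 0 members (0% of genes each), so the 3 calls in LP are not shown to be particular to LP. At an unadjusted p under 0.05, edgeR gave 0 members in basal cells (8.99% of all genes) and 0 in mature luminal cells (7.16%). For the differences it gave 3 (7.17%) and 0 (1.7%), and DESeq2 called 0 in each.
Between LP and mature luminal cells of wild-type rats 1 member was called (11% of all genes, 5.01% higher and 5.99% lower): Cebpb, at 331 to 439 CPM in LP and 693 and 689 CPM in mature luminal cells (-0.81 ± 0.22, adjusted p = 0.034). It was lost when any one of these 6 libraries was left out. With the library number as a block within genotype 10 members were called, 4 higher and 6 lower, where 34.2% of all genes were, and Cebpb had an adjusted p of 0.0061. Of 6 endothelial markers 5 were higher in LP, with a sum of 278 to 534 CPM there and 70.1 to 72.1 CPM in mature luminal cells, and their part in the call was not tested. The same comparison in knockout cells called 0 members (0% of genes), or 1 with the block (4.86%). PNA+ against Cd49b+ progenitors called 0 as well (0%), where Aars lay at 107 to 151 CPM and 111 to 148 CPM. At an unadjusted p under 0.05 edgeR gave 2 and 1 members in these (17.5% and 2.92% of all genes), and DESeq2 called 0 and 0.
Some members differed between the numbered wild-type libraries of 9 weeks. Phgdh was 171 CPM in basal replicate 1 and 30 CPM in replicate 2, 269 and 56.4 CPM in mature luminal cells, 130 and 21.5 CPM in PNA+ cells and 116 and 24.8 CPM in Cd49b+ cells. Psat1 followed, at 88.6 and 18.2, 33.6 and 5.32, 33.3 and 7.02, and 30.2 and 6.12 CPM in the same order. In all, 5 members (Phgdh, Psat1, Shmt2, Farsb and Vars) were over 1 log2 unit higher in replicate 1 in all 4 wild-type populations, and 3.01% of all genes differed by as much in a constant direction. In knockout cells 0 members did (1.33% of all genes). Psph, which completes serine synthesis and is no member, was 64.8 and 29.9, 19.1 and 14.2, 23.4 and 19.6, and 25 and 20.9 CPM in the order used for Psat1. The labels do not say what the replicate numbers stand for at 9 weeks.

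E2 and strain left no call among the members. In luminal cells of the E2 experiment 0 members were called for E2 (0% of all genes) and in basal cells 0 (0%). Aars in ACI luminal cells was 53.4 and 34.2 CPM in controls and 111 and 124 CPM after E2, and in BN it was 62.8 CPM in the control and 78 CPM in the E2 library, so each E2 library lay above its control. The fitted log2 fold change was 1.06 ± 0.42 with an adjusted p of 1 in edgeR's quasi-likelihood test. Iars in ACI was 30 and 13.7 CPM in controls and 171 and 99.2 CPM after E2, and in BN 8.1 and 18.7 CPM (2.16 ± 0.63, adjusted p = 1). The Atf4 transcript went the other way: 2180 and 2290 CPM in ACI controls, 985 and 925 CPM after E2, and 1940 and 1380 CPM in BN (-0.98 ± 0.33, adjusted p = 1). ACI E2 luminal replicate 1, the first value of each ACI pair after E2, had 13659389 reads on genes, the fewest in that experiment. It had 9184 genes with a count and read 0 for Trib3, Chac1, Phgdh, Shmt2 and Cth. At an unadjusted p under 0.05 edgeR gave 6 members in luminal cells and 3.68% of all genes. DESeq2 called 3 members, 2 higher and 1 lower, and its share of all genes is not given here.
In basal cells Aars was 107 and 96.6 CPM in ACI controls, 184 and 124 CPM after E2, and 157 and 110 CPM in BN, without a common order. The biological coefficient of variation in this experiment was 125%. The library of ACI E2 basal replicate 1 read 0 for Mars, Farsb, Asns and Cth and had 7716 genes with a count, the fewest in that experiment. For ACI against BN, 0 members were called in luminal (0% of genes) and 0 in basal cells (0%); DESeq2 called 1 member in luminal cells. The difference of the E2 effect between luminal and basal cells was called in 0 members (0%). At an unadjusted p under 0.05, edgeR gave 1 member for E2 in basal cells (2.26% of all genes). For strain it gave 5 in luminal (3.91%) and 1 in basal cells (1.43%), and for the difference of the E2 effect 2 (2.79%). DESeq2 called 0 for E2 and 0 for strain in basal cells, and 0 for that difference.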

How the data were processed

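Per the labels, polyA RNA (total RNA in the E2 experiment) was extracted with the RNeasy kit and made into libraries with the SMARTer low-input kit from under 10 ng of RNA. The authors counted single-end reads per gene: the deposited values are raw counts from HTSeq on STAR 2.5.1b alignments to rn6 with the refGene annotation, not normalized; use of strand is not given in the sources used here. Reads that HTSeq did not assign to one gene, 47.1% to 77% per library, stayed out of library sizes. Groups compared held 1 to 4 libraries, which limits the precision of every comparison.

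Counts of 48 libraries were fitted with edgeR 4.0.16 (R 4.3.3; filterByExpr, TMM, glmQLFit, glmQLFTest) per experiment: 9 weeks, its 8 LP libraries for PNA+ against Cd49b+, 4 weeks, 6 weeks, 4 with 6 weeks for age, and E2. Each fit used 1 mean per group; PNA+ against Cd49b+ had genotype as a covariate, and the E2 experiment had additive strain and treatment effects, within each cell type or, for basal against luminal, over both. Adjusted p is Benjamini-Hochberg over all genes of a comparison, called under 0.05. CPM in the text is TMM-scaled, jointly for 4 and 6 weeks. The text names Aars, called members and up to 3 more per direction by fold change above a mean log2 CPM of 2; other members were picked by role after their values were seen. Members, lists and the split of synthetases were chosen with earlier results of these data known.

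Alternatives were RLE normalization, no filter, at least 10 counts in every library, DESeq2 1.42.0, the compared libraries alone, replicate blocks, summed or separate LP libraries, and leaving out each library; a joint 4- and 6-week fit for genotype, the knockout age comparison, fits of the basal libraries alone, fits without knockout luminal replicate 2 of 6 weeks, crossed numbers, blocks within genotype and overlap counts without the 6-week libraries in doubt were added after seeing the data. Of 28 pairs of libraries of one group, none held identical values. The scripts were tested on simulated data. At 4 weeks, titles name the animal of each basal and luminal library, and the deviations of one animal's libraries correlated at r = 0.176 to 0.728 over 5 pairs. At 9 weeks the labels give only a number. Within a genotype, libraries of one number correlated at r = 0.333 to 0.891 over 12 pairs. The main fits did not pair them, and blocks by number were used only as alternatives. Promoters are RefSeq sequences of GRCr8, and no coordinates were converted. ChIP-seq peaks were not used here, and some marker genes and 1 promoter sequence are not reported here.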

Additional observations from a re-analysis of the deposited data

Results flagged for a closer look

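In the 4 knockout LP libraries of 9 weeks, 1 library stood far from the other 3 for a pair of synthetases. PNA+ replicate 2 had 99.9 CPM of Iars, where the others had 57.3 to 62.6, and 83 CPM of Rars, where the others had 64.8 to 67.8. The gap to the nearest library was 0.875 of the group's range for Iars and 0.838 for Rars. Over the 64 groups and genes examined, chance marks about 1 group in 20. Without that library the log2 fold change of Iars was 0.86 and the count of called members 1.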

How the results depend on the processing

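Of the recomputed values, 956 for single members and 244 for whole comparisons kept their direction and side of the threshold, or a count within 1.5 times; of the others, 46 for whole comparisons moved, and for single members 93 lost their call, 28 gained one, 29 turned sign and 15 moved. DESeq2 called 7 members for genotype in basal cells at 6 weeks, 3 for its difference between ages, 3 for E2 and 1 for strain in luminal cells, 3 for basal against luminal cells in the E2 experiment, 6 at 4 weeks, and 2 for LP against mature luminal wild-type cells. The compared libraries alone gave 6 at 4 weeks, 2 for basal and 2 for LP against mature luminal cells at 9 weeks. No filter gave 2, and 10 counts in every library 2, in the basal-luminal comparison of the E2 experiment. Genotype in basal cells at 6 weeks had 6 with 4 weeks in one fit. Genotype in LP had 0 with summed libraries, 0 in PNA+ and 0 in Cd49b+ cells alone. The cause of these shifts was not tested, and summed and separate libraries leave fewer samples. Where no count or share of all genes stands beside an alternative count, it is not read as a result about the members.

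At 9 weeks, deviations of libraries with one number correlated across genotypes at r = -0.449 to -0.02, so the number pairs no libraries there. With the number as a replicate block, genotype in LP had 5 calls, and 4 with crossed numbers. A block within genotype gave 15 for basal and 10 for LP against mature luminal wild-type cells, and 1 for LP against mature luminal knockout cells. With the animal as a block, the 4-week basal-luminal comparison had 11 calls. Blocks moved no other count of called members by over 1.5 times.

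Leaving out single libraries gave 1 to 5 members for genotype in LP, 0 for LP against mature luminal wild-type cells, 1 to 4 for basal against mature luminal cells, 3 to 5 for the 4-week basal-luminal comparison, 10 to 16 for age in wild-type basal cells, 0 to 2 for the basal-luminal comparison of the E2 experiment, and a median of -2.06 to -1.32 for genotype in luminal cells at 6 weeks.

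Signs turned only for log2 fold changes that were not called. For Aars these were strain in luminal cells, 0.041 (RLE), 0.025 (no filter), 0.031 (10 counts), 0.042 (DESeq2) and 0.008 (alone), and LP minus basal genotype effects, 0.014 (RLE) and 0.014 (DESeq2). Leaving out single libraries moved Aars from -0.42 to 0.56 and from -0.12 to 0.65 (LP minus basal and LP minus mature luminal genotype effects), -0.36 to 0.62 and -0.45 to 0.32 (genotype in basal and mature luminal cells at 9 weeks), -0.23 to 0.54 and -0.18 to 0.01 (LP against mature luminal, knockout and wild type), -0.66 to 0.18 and -0.61 to 0.014 (basal against luminal and genotype in luminal cells at 4 weeks), -0.93 to 0.082 (genotype effect in basal cells, 6 minus 4 weeks), -0.50 to 0.62 and -0.63 to 0.44 (strain in luminal and basal cells) and -0.046 to 0.60 (E2 in basal cells). It moved Phgdh from -1.87 to 0.41 (LP against mature luminal, wild type) and Ddit3 from -0.14 to 1.51 (genotype in luminal cells at 6 weeks).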
